A study of Mus musculus with 2 samples.

Results

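Mitochondrial ribosomal proteins were examined in the liver of male apolipoprotein E-deficient mice fed a Western diet with or without oleanolic acid, a plant triterpenoid. The members were all probe sets of the array whose single annotated gene symbol begins with Mrpl (large subunit) or Mrps (small subunit). This rule took 127 of 22690 probe sets, 88 for 47 large subunit genes and 39 for 27 small subunit genes. A further 3 probe sets carry such a symbol beside that of another gene and were left out.

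Both groups were apolipoprotein E-deficient male mice on a C57BL/6J background, given as 2 months old, which received a semipurified Western diet for 11 weeks. The oleanolic acid group had 0.01% oleanolic acid in this diet, equal to 10 mg per kg per day, and the control group had the diet alone. The growth protocol names oleanolic acid for the control sample too, so the arrays were assigned by title and diet label. Each group was 1 array of pooled liver RNA, so n = 1 per diet for every value, no test was possible, and every difference describes these arrays and not the diets.

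Mammalian mitochondria carry their own ribosomes, which translate the few proteins encoded by mitochondrial DNA, all of them subunits of the respiratory chain and ATP synthase. Every protein of these ribosomes is encoded in the nucleus, made in the cytosol and imported, and joins ribosomal RNA transcribed from mitochondrial DNA. Some descend from bacterial ribosomal proteins and others are found only in mitochondria. The liver is rich in mitochondria, and its oxidative metabolism depends on this translation.

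Liver identity was checked with lists of markers. Hepatocyte markers had summed signals of 41684 units in the oleanolic acid array and 42692 units in the control array, over the 6 of 8 that had a probe set. Of these, 4 were above 0 and 1, Tat, was below -0.5, at -0.70. Exocrine pancreas markers were below a log2 ratio of -0.5 for 6 of 6 measured genes. Their summed signals were 186.5 units in the oleanolic acid array and 663 units in the control array. Each of the 6 counted as measured through the control array alone, so the measured rule favoured ratios below 0. With the floor at the array median 4 of 6 were past 0.5. With both arrays required to reach their median 0 were measured. Among 4 measured brown fat markers, Ucp1 and Cox8b were at or under the floor of the oleanolic acid array and above that of the control array. Both counted as measured through the control array alone. Ppargc1a was at -0.46, while Elovl3, which liver also expresses, was higher in the oleanolic acid array. With the floor at the array median 1 of these 4, Elovl3, was past 0.5. The listed markers Cidea and Dio2 were too dim to count as measured. Of 4 B and plasma cell markers with a probe set, Ighm and Jchain were measured, and these 2 were below -0.5. Jchain counted as measured through the control array alone. Cd79a and Cd79b were dim, with 7.8 and 41.2 units in the oleanolic acid array and 7.3 and 40.6 units in the control array. With all probe sets counted as measured, 1 of 4 was past 0.5, 1 was above 0 and the median was -0.26. Of 6 macrophage markers 6 were below 0 (median -0.15), against 3547 of 7137 measured genes. The 1 marker below -0.5 was Marco, at -0.67, and the others lay between -0.18 and -0.06. What these cell types contributed to the values of the mitochondrial ribosomal protein genes was not tested. In pooled tissue, fewer cells of a type and less RNA per cell cannot be told apart.

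Promoter sequence is one feature of the members that the symbol rule did not use. RefSeq promoter windows of GRCm38.p6, from 250 bases before to 50 after the transcription start, were matched by symbol for 65 of the 74 genes, 41 of the large and 24 of the small subunit. They were searched on both strands for 3 short cores of factors known to act on nuclear genes for mitochondrial proteins: the NRF-1 half-site (TGCGCA), the ETS core bound by GABP (CCGGAAG) and the YY1 core (AAGATGG). None of these letter strings contains another, and the NRF-1 half-site is its own reverse complement. The short NRF-1 and YY1 cores replaced longer consensus strings after the results of the longer strings had been seen, while the ETS core was the same throughout. The longer strings were found at lower shares in members and in measured genes alike, so these shares hold for the short letters only. The ETS core was found in windows of 24 of 65 member genes (36.9%), against 21.6% of 5887 measured genes with a window. The NRF-1 half-site was found for 21 members (32.3%), against 16.8% of measured genes, and the YY1 core for 12 members (18.5%), against 9.07%. At least 1 of the 3 was present for 42 of 65 members (64.6%), against 39.7% of measured genes. By subunit, the ETS core was found for 14 of 41 large and 10 of 24 small subunit genes, and the NRF-1 half-site for 12 of 41 and 9 of 24. The median GC content of the windows was 58.0% for members and 60.7% for measured genes. A match describes letters only and shows no binding.

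The following stretches run from 100 bases before to 50 after the start on the gene's strand, with motif matches in capitals. They were picked after the values and the matches had been seen, and are shown for the highest and the lowest gene of each subunit by log2 ratio (Mrpl36, Mrpl42, Mrps30 and Mrps21), for Mrps18a, which holds each of the 3 cores, for Mrpl22, which is among the highest genes and holds ETS and NRF-1 cores, and for Mrpl43, which holds a pair of ETS cores. Their positions are Mrpl36 (chr13:73330909-73331058, plus strand), Mrpl42 (chr10:95501900-95502049, minus strand), Mrps30 (chr13:118387203-118387352, minus strand), Mrps21 (chr3:95871465-95871614, minus strand), Mrps18a (chr17:46110904-46111053, plus strand), Mrpl22 (chr11:58171564-58171713, plus strand) and Mrpl43 (chr19:45006393-45006542, minus strand).
Mrpl36: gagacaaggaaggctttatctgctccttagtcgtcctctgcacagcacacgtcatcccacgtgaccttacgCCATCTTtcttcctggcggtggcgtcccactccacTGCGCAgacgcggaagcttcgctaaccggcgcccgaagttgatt
Mrpl42: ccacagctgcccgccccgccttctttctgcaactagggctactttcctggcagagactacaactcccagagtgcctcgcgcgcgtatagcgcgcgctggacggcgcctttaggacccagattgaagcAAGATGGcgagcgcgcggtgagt
Mrps30: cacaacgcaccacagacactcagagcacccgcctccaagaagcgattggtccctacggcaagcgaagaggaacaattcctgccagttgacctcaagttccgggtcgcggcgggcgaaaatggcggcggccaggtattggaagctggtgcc
Mrps21: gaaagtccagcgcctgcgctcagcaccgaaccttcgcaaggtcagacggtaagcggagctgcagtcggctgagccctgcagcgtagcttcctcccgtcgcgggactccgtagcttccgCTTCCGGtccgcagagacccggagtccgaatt
Mrps18a: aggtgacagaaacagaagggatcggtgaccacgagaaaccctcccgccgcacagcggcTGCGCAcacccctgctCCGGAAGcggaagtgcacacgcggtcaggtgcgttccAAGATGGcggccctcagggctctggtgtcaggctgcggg
Mrpl22: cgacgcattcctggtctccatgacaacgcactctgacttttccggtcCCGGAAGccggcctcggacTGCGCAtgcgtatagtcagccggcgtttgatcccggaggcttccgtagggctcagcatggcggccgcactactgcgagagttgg
Mrpl43: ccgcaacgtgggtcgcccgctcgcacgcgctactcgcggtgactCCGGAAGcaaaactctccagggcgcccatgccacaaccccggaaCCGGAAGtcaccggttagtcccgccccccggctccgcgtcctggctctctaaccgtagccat

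No core in the stretch of Mrps30 says only that these letters are not there. Among the 24 members with an ETS core in the window, 21 had a log2 ratio above 0 (median 0.07), against 25 of the 41 members without it (median 0.04). For the NRF-1 half-site 18 of 21 members with it were above 0 (median 0.12), against 28 of 44 without it (median 0.04). For the YY1 core 9 of 12 members with it were above 0 (median 0.12), against 37 of 53 without it (median 0.04). The longer NRF-1 string, searched first, had given the opposite order of medians, so the NRF-1 order depends on the letters chosen. For the longer YY1 string, found in few members, the order was the same. These splits were not tested. They were not made over all measured genes either, so they show nothing particular to the members.

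Mitochondrial ribosomal protein transcripts were well measured and differed little between the arrays. Signals, in the linear array units deposited, were turned into log2 ratios of oleanolic acid over control after raising values below each array's 25th percentile to it (10.1 units in the oleanolic acid array, 10.7 in the control array). A probe set counted as measured when its signal reached the array's median on at least 1 array (59.3 units in the oleanolic acid array, 61.5 in the control array). This held for 104 of the 127 probe sets, which covered 74 of 74 member genes. Measured probe sets of a gene were averaged, and the error of a gene, the probe set SD, is the SD between them or, for the 53 genes with 1 measured probe set, the pooled SD of all measured genes of similar signal. It covers differences between probe sets read on the same arrays. It does not cover labelling or hybridization error shared by a whole array, or variation between mice.

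Gene signals ran from 154 to 1991 units with a median of 515 in the oleanolic acid array, and from 149.5 to 1955 units with a median of 492 in the control array. No member gene lay in the lowest of 4 signal bands of equal gene number, 11 lay in the next, 29 in the third and 34 in the brightest. Across the 104 measured member probe sets, the log2 signals correlated between arrays with a Pearson r of 0.993 (0.986 for the 11642 measured probe sets), as a description, since probe sets share each array's hybridization.

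**Figure D1:**
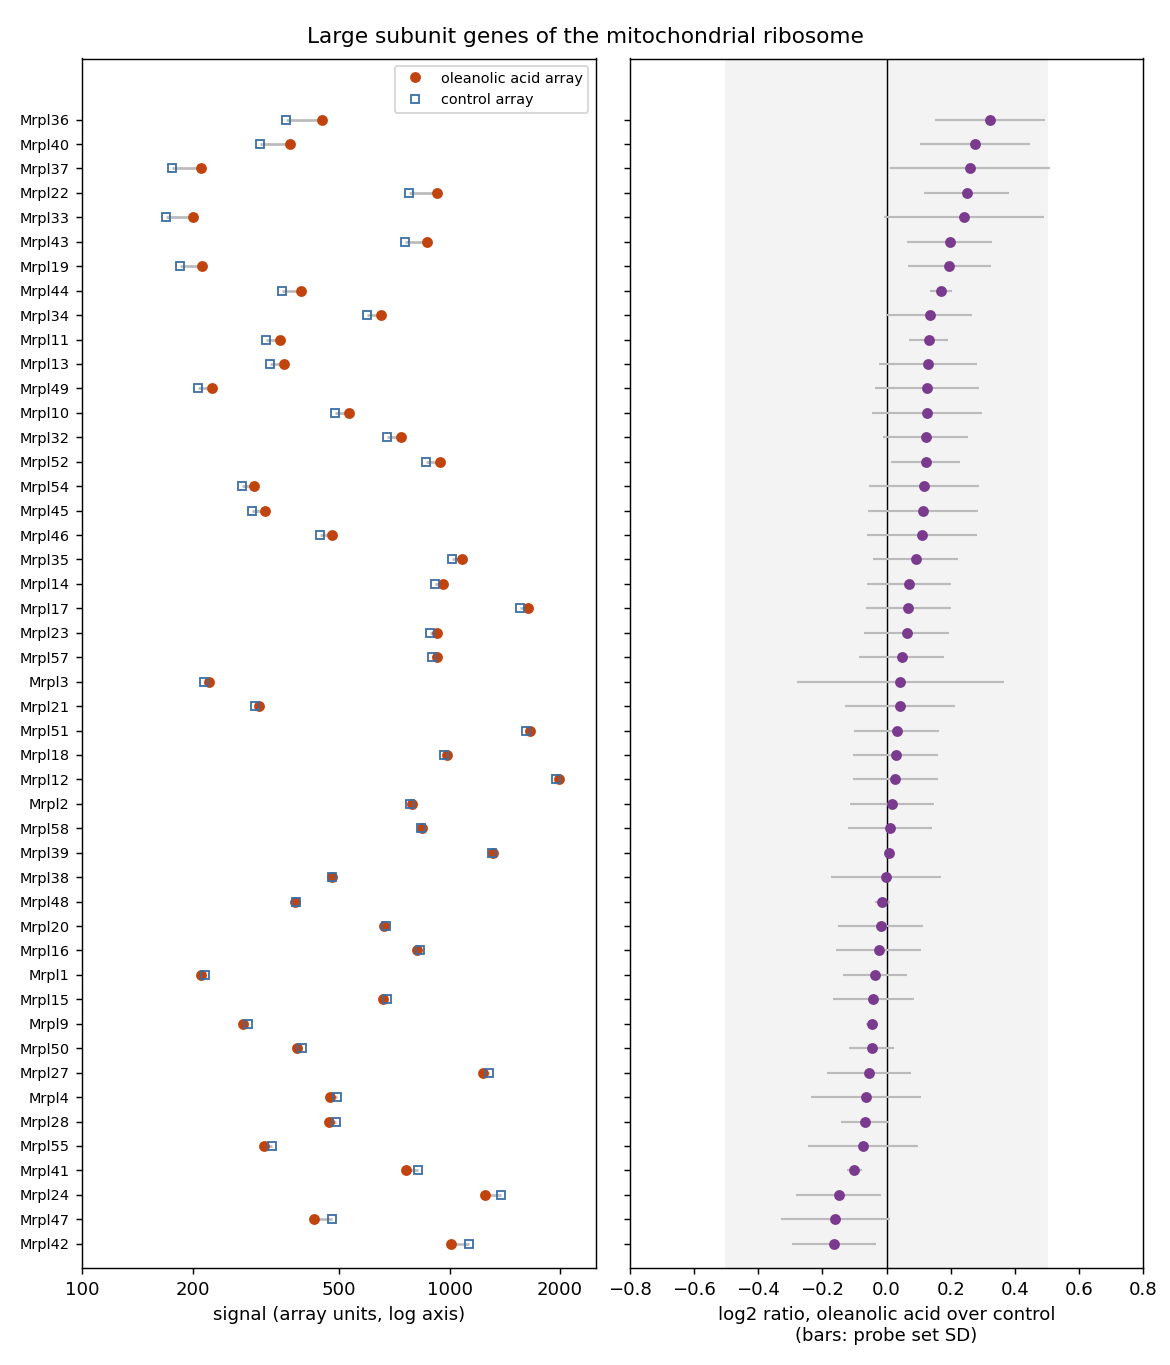
Signals of the 47 large subunit genes on the oleanolic acid array (filled circles) and the control array (open squares), in array units on a log axis, beside the log2 ratio with the probe set SD as bars. Grey shading marks log2 ratios within 0.5 of 0, which holds 47 of 47 genes, from Mrpl36 at the top (0.32) to Mrpl42 at the bottom (-0.16).

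Of 74 genes, 0 had a log2 ratio past 1.5, the size that the submitters named, 0 past 1 and 0 past 0.5. Over all 7137 measured genes, 0.392% were past 1.5, 1.02% past 1 and 5.87% past 0.5 in either direction. Among the 4289 measured genes within the members' range of mean signal, 152 to 1973 units, 3.68% were past 0.5. Past 0.2, a size chosen after the values were seen, there were 8 of 74 members, all 8 on the positive side, against 31.8% of all measured genes and 27% of those in the same signal range. In fold terms the members ran from 0.893 for Mrpl42 to 1.27 for Mrps30.

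The member genes lay slightly to the positive side. Log2 ratios were above 0 for 51 of 74 genes and below 0 for 23, with a median of 0.06 and a mean of 0.06. Over all measured genes 50.2% were above 0 and the median was 0.0012, and within the same signal range 48.9% were above 0 with a median of -0.0052. The SD of log2 ratios among the 74 genes was 0.12, against 0.28 over all measured genes and 0.23 in the same signal range. The pooled SD between probe sets of one member gene was 0.11, so the members differed from each other about as much as probe sets of the same gene did. The log2 ratio was past the gene's own probe set SD in 20 of 74 genes, against 40.5% of all measured genes. It was above that SD on the positive side in 16 of 74 members, close to the 19.2% of all measured genes.

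By signal band, 9 of 11 members of the second band were above 0 (median 0.13), 18 of 29 in the third (median 0.06) and 24 of 34 in the brightest (median 0.05). All measured genes of these bands had medians of -0.0061, -0.01 and 0.03, and 48.8%, 47.2% and 58.2% of them were above 0. The difference from other genes of similar signal was therefore smallest in the brightest band.

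**Figure D2:**
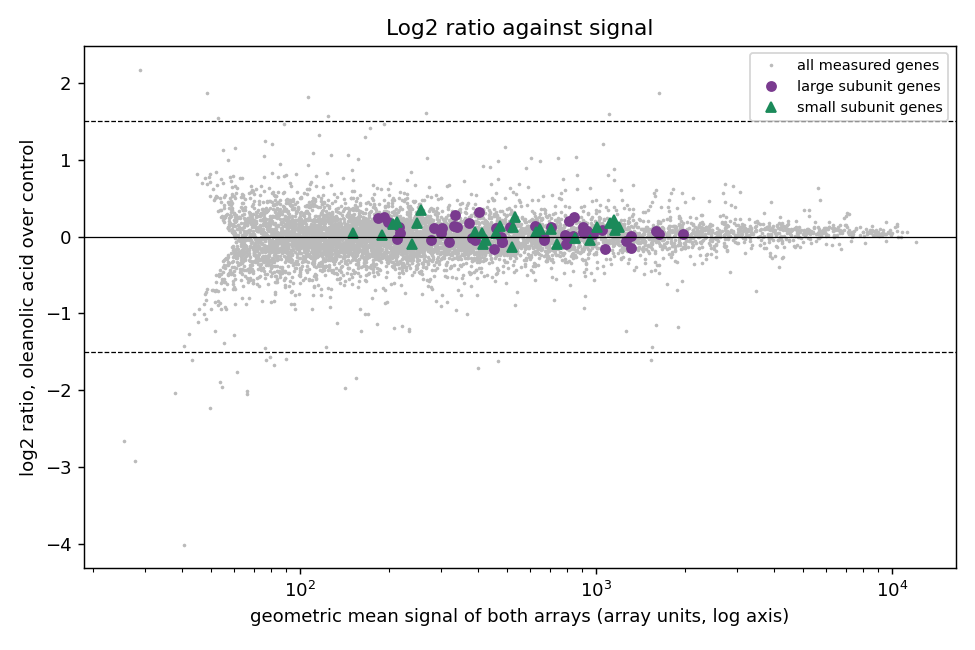
Log2 ratio of oleanolic acid over control against the geometric mean signal of both arrays (array units, log axis) for 7137 measured genes (grey), large subunit genes (circles) and small subunit genes (triangles). Dashed lines mark 1.5 and -1.5; the 74 member genes lie between -0.16 and 0.34 at signals from 152 to 1973 units.

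Large subunit genes had a slightly lower median log2 ratio than small subunit genes, and no test of this difference was possible. The median log2 ratio was 0.04 for 47 large subunit genes and 0.08 for 27 small subunit genes, a difference of -0.04 for large minus small. Values above 0 were found for 31 of 47 large and 20 of 27 small subunit genes. Their SDs among genes were both 0.12, and their ranges overlapped almost wholly, from -0.16 to 0.32 in the large and from -0.14 to 0.34 in the small subunit. The proteins of Mrps18a and Mrps30, small subunit genes by symbol, sit in the large subunit of the mammalian particle. With both counted there, the medians were 0.05 for 49 large and 0.06 for 25 small subunit genes.

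The genes were also grouped by whether the protein has a bacterial counterpart or is named as mitochondria-specific. Mrpl55, Mrps18a, Mrps30 and Mrps36 are on none of these lists. Bacterial-type proteins had a median of 0.04 in the large subunit (28 genes, 18 above 0) and 0.04 in the small subunit (15 genes, 9 above 0), and of 0.04 and -0.0065 in the same order of subunits with the brightest probe set alone. Mitochondria-specific proteins had a median of 0.08 in the large subunit (18 genes, 13 above 0) and 0.10 in the small subunit. There 9 of 9 genes were above 0, from 0.04 for Mrps35 to 0.19 for Mrps23, against 50.2% of all measured genes. These 9 all carry Mrps symbols, so the count depends on how the list was drawn. Of 4 measured ribosomal proteins with other symbols, described below and on none of these lists, 2 were above 0 and 2 below 0. Of these genes, Mrps23 (probe set SD 0.11) and Mrps25 (0.18, probe set SD 0.17) were past their probe set SD, and the others lay within it. The same 9 of 9 stood above 0 under both other normalizations, quantile and intensity-dependent.

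The highest large subunit gene was Mrpl36, a homologue of a bacterial ribosomal protein, with 449.5 units in the oleanolic acid array and 359 in the control array, which is a ratio on the log2 scale of 0.32 (probe set SD 0.17). Mrpl40, a mitochondria-specific protein, had 368 units in the oleanolic acid array, against 304 units in the control array (log2 ratio 0.28, probe set SD 0.17). Mrpl22, whose bacterial homologue lines the peptide exit tunnel, had 923 units in the oleanolic acid array, against 776 units in the control array (log2 ratio 0.25, probe set SD 0.13). In these 3 genes, each read by 1 measured probe set, the oleanolic acid array was higher by more than the probe set SD. Mrpl37 and Mrpl33 (log2 ratios 0.26 and 0.24) are dimmer genes with a probe set SD of 0.25. Mrpl43, with the pair of ETS cores printed above, had 866 units in the oleanolic acid array, against 755 units in the control array (log2 ratio 0.20, probe set SD 0.13).

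At the other end, Mrpl42, a mitochondria-specific protein, had 1010 units in the oleanolic acid array and 1132 in the control array, which is a ratio on the log2 scale of -0.16 (probe set SD 0.13). Mrpl47 had a log2 ratio of -0.16 (probe set SD 0.17), and Mrpl24 one of -0.15 (probe set SD 0.13) on 1248 units in the oleanolic acid array, against 1384 units in the control array. These 3 lay just past or within 1 probe set SD of 0. Mrpl41 was at -0.10 ± 0.02 (SD, n = 2 probe sets), Mrpl28 at -0.07 ± 0.08 (SD, n = 3 probe sets) and Mrpl55 at -0.07.

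**Figure D3:**
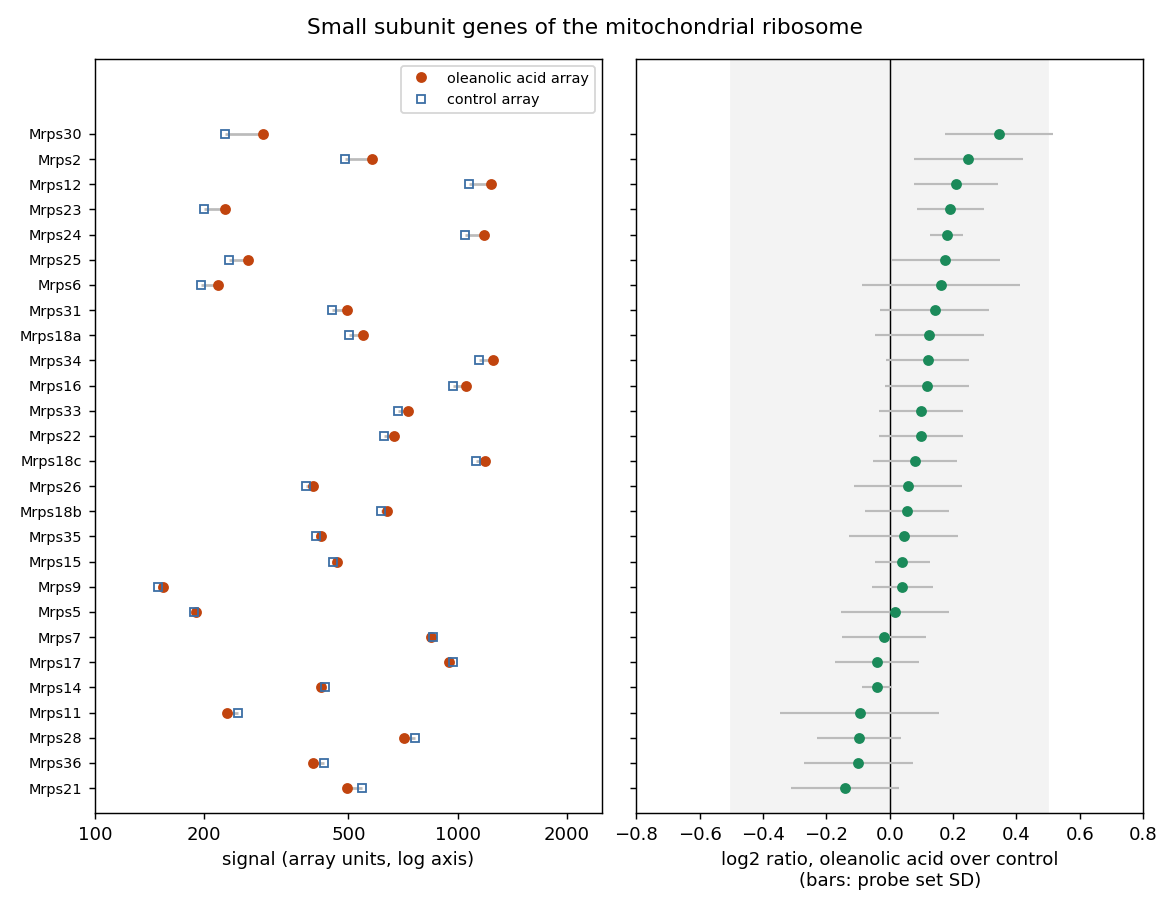
Signals of the 27 small subunit genes on the oleanolic acid array (filled circles) and the control array (open squares), in array units on a log axis, beside the log2 ratio with the probe set SD as bars. Values run from Mrps30 at the top (0.34) to Mrps21 at the bottom (-0.14), all within 0.5 of 0 (grey shading).

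Among genes named for the small subunit, Mrps30 had the highest value of all members, with 290.1 units in the oleanolic acid array and 228.5 in the control array, which is a ratio on the log2 scale of 0.34 (probe set SD 0.17). Mrps2, a bacterial-type protein, had 582 units in the oleanolic acid array, against 489.7 units in the control array (log2 ratio 0.25, probe set SD 0.17). Mrps12, whose bacterial homologue forms part of the decoding centre, had 1240 units in the oleanolic acid array, against 1072 units in the control array (log2 ratio 0.21, probe set SD 0.13). These 3 were the small subunit genes past 0.2. Mrps23 was at 0.19 ± 0.11 and Mrps24 at 0.18 ± 0.05 (SD, n = 2 probe sets each).

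The lowest small subunit gene was Mrps21, with 495 units in the oleanolic acid array and 546 in the control array, which is a ratio on the log2 scale of -0.14 (probe set SD 0.17). Mrps36 (-0.10), Mrps28 (-0.10), Mrps11 (-0.10) and Mrps14 (-0.04 ± 0.05, SD, n = 2 probe sets) followed. The product of Mrps36 is now assigned to the oxoglutarate dehydrogenase complex rather than to the ribosome. None of these 5 was lower by more than its probe set SD.

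Genes were also grouped by functional site. The stalk of the large subunit recruits translation factors, and its genes Mrpl10 and Mrpl11 were at 0.13 (probe set SD 0.17) and 0.13 ± 0.06 (SD, n = 3 probe sets), while Mrpl12, the stalk protein that also binds the mitochondrial RNA polymerase, was the brightest member and was at 0.03 (probe set SD 0.13), with 1991 units in the oleanolic acid array and 1955 in the control array. Mrpl17 (0.07) and Mrpl51 (0.03) were the other two of the 3 brightest large subunit genes, and Mrps12, Mrps34 and Mrps18c those of the small subunit. Of 4 genes near the decoding centre of the small subunit, Mrps12 was highest at 0.21, while Mrps5 was at 0.02 ± 0.17 (SD, n = 2 probe sets), Mrps7 at -0.02 and Mrps11 at -0.10, each within its probe set SD.

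The 3 paralogues related to bacterial S18 were at 0.13 for Mrps18a, 0.08 for Mrps18c and 0.05 for Mrps18b, each within its probe set SD. Mrps18b was counted above as mitochondria-specific because its protein does not take the place of S18, although it is related to it by sequence. Mrpl58, a peptidyl-tRNA hydrolase that rescues stalled ribosomes, was at 0.01, and Mrpl45, which lies at the tunnel exit next to the inner membrane, at 0.11. Mrpl48 was at -0.01 ± 0.02 (SD, n = 2 probe sets).

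Genes whose human orthologues cause mitochondrial disease when mutated were described with a list of 10. Of these, 7 were above 0, with a median of 0.07. Mrps2 was highest and Mrps28 lowest. Mrpl44, which has a ribonuclease III-like fold, was at 0.17 ± 0.03 (SD, n = 3 probe sets). The 3 probe sets had 185, 483 and 683 units in the oleanolic acid array, against 161, 432 and 620 units in the control array. Its probe sets were higher in the oleanolic acid array in 3 of 3 cases. Mrps34 (0.12), Mrps16 (0.12) and Mrps22 (0.10) lay within 1 probe set SD of 0.13. Mrpl3, the homologue of a protein near the bacterial peptidyl transferase centre, was at 0.04 ± 0.32 (SD, n = 2 probe sets).

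Repeat probe sets gave the only internal check. Of 21 member genes with at least 2 measured probe sets, 12 had every probe set on one side of 0, 8 above and 4 below, and 9 had them on both sides. The median gap between the highest and lowest probe set of a gene was 0.14. The largest gap, 0.46, belonged to Mrpl3, where one probe set had 208 units in the oleanolic acid array, against 173 units in the control array and the other 235 units in the oleanolic acid array, against 267 units in the control array.

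**Figure D4:**
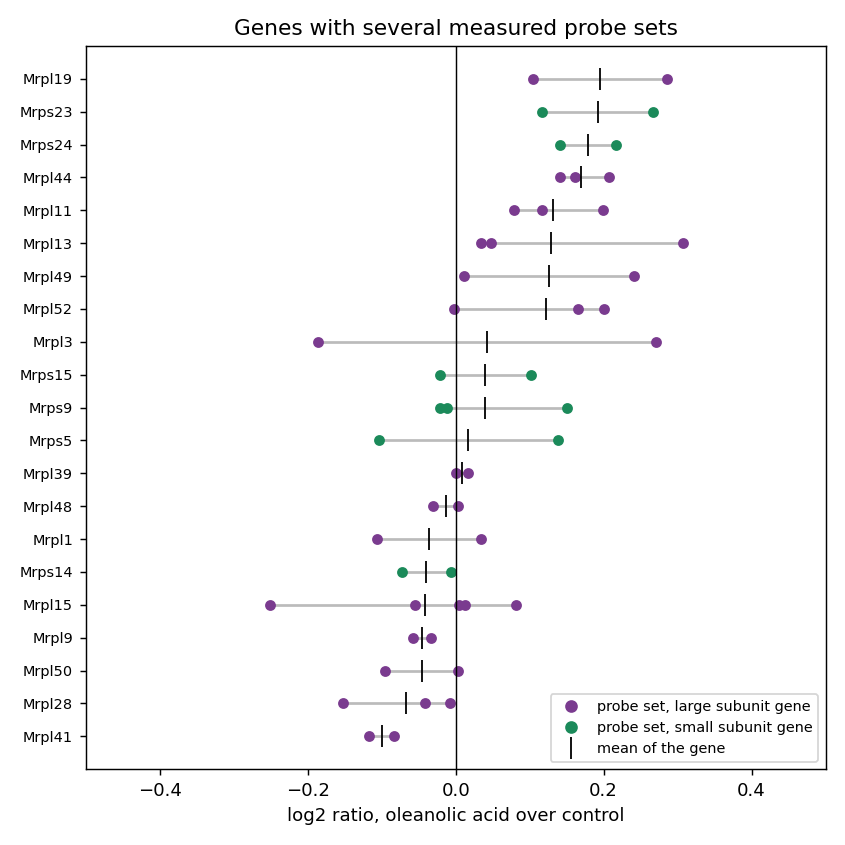
Log2 ratios of single probe sets for the 21 member genes with several measured probe sets, with the gene's mean as a bar. In 12 genes the probe sets lie on one side of 0, 8 on the right and 4 on the left, and Mrpl3 has the widest gap (0.46).

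The 23 dim probe sets belonged to 20 genes, each of which had another, measured probe set. Their signals were at most 56.0 units in the oleanolic acid array and 55.1 in the control array, and 8 were at the floor on at least 1 array. One of them, for Mrpl57, had 15.8 units in the oleanolic acid array, against 44.5 units in the control array, a log2 ratio of -1.49, while the bright probe set of Mrpl57 had 925.5 units in the oleanolic acid array and 895.8 in the control array, a log2 ratio of 0.05. Another, for Mrps25, had 18.4 units in the oleanolic acid array, against 9.4 units in the control array, while its bright probe set was at 0.18. These 2 genes were picked after their values were seen.

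The wider machinery of mitochondrial translation was described with lists of related genes, whose counts past 0.5 are to be read beside the 5.87% of all measured genes. Ribosomal proteins with other symbols had 4 measured genes of 6 listed and 0 past 0.5: Gadd45gip1 (0.14), Dap3 (0.10), Chchd1 (-0.02) and Ptcd3 (-0.14). Translation factors had 9 of 15 measured, 0 past 0.5, 7 above 0 and a median of 0.10. Their lowest values were those of Tufm, the mitochondrial elongation factor Tu, with 488 units in the oleanolic acid array and 584.5 in the control array (log2 ratio -0.26, probe set SD 0.17), and of the mRNA-binding protein gene Lrpprc, with 627 units in the oleanolic acid array, against 731 units in the control array (-0.22, probe set SD 0.13). The highest were Oxa1l (0.14 ± 0.03, SD over its probe sets), which inserts nascent proteins into the inner membrane, and the initiation factor gene Mtif2 (0.12). Tufm and Lrpprc lay below the lowest of the 74 ribosomal protein genes.

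Enzymes that charge mitochondrial tRNAs had 10 of 20 measured, 0 past 0.5 and 4 above 0. Their median was -0.01, against 0.01 after quantile normalization and 0.0083 after centring by intensity. Tars2 (0.23) and Qrsl1 (0.19) were highest, and Rars2 (-0.32) and Sars2 (-0.18) lowest, with probe set SDs of 0.24 to 0.27.

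Factors of ribosome assembly and ribosomal RNA processing had 23 of 36 measured and spread more widely than the ribosomal proteins, with an SD of 0.25, a median of 0.07 and 14 above 0. The 1 gene past 0.5 was Mrm2, for an rRNA methyltransferase, with 76.1 units in the oleanolic acid array and 49.1 in the control array (log2 ratio 0.63, probe set SD 0.27). The count past 0.5 in this list was 0 with the floor at the array median or with both arrays required to reach their median, 2 with the brightest probe set alone, and 3 with either quantile normalization or intensity-dependent centring. The pseudouridine synthase gene Rpusd4 (0.49, probe set SD 0.27) came next, and Fastkd1 (-0.44, probe set SD 0.17) and Noa1 (-0.21) were lowest. These genes are dimmer, with a median signal of 167 units, against 515 units for the ribosomal proteins.

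Regulators of mitochondrial transcription and biogenesis had 12 of 13 measured, 0 past 0.5 and 4 above 0, with a median of -0.06. The coactivator genes Ppargc1b and Ppargc1a were lowest, at -0.47 (probe set SD 0.17) and -0.46 ± 0.15 (SD, n = 5 probe sets). Ppargc1b had 321 units in the oleanolic acid array and 446 in the control array. Ppargc1a is also one of the brown fat markers above. Which cells the Ppargc1a signal came from was not tested, and fewer cells of a type and less RNA per cell cannot be told apart. Tfam, whose protein packages mitochondrial DNA and helps to start its transcription, was highest at 0.20 (probe set SD 0.13), followed by Myc (0.19). Among factors whose motifs were searched in the promoters, Nrf1, a dim gene, was at -0.05 (probe set SD 0.27) and Yy1 at 0.04 ± 0.13 (SD, n = 3 probe sets). The probe sets of Gabpa went opposite ways, at -0.30 and 0.26, so its mean of -0.02 has an SD of 0.40 (n = 2 probe sets). Of 3 matrix protease genes, Clpx was at 1.60 (1918 units in the oleanolic acid array and 634 in the control array), while its partner Clpp was at 0.09 and Lonp1 at 0.03.

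**Figure D5:**
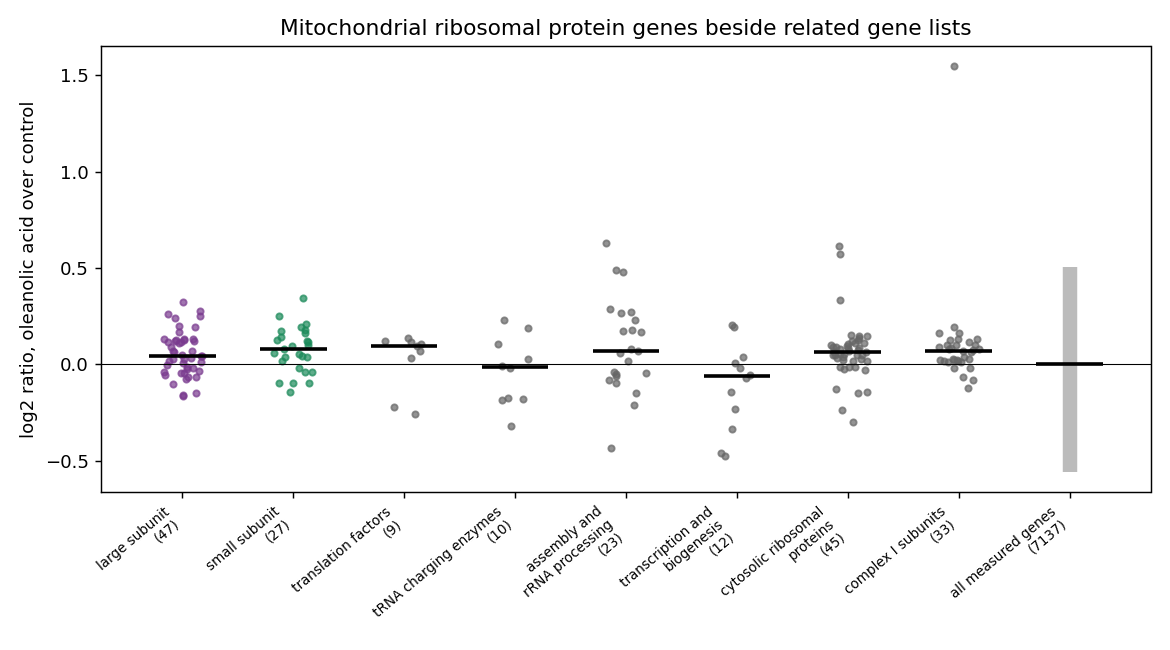
Log2 ratios of large and small subunit genes beside related lists, with the median of each as a black bar and the number of measured genes in brackets; the grey column spans the central 95% of 7137 measured genes, -0.56 to 0.51. The subunit medians are 0.04 and 0.08. The lists of assembly factors and of transcription and biogenesis reach farther from 0 than the subunits do. So do those of cytosolic ribosomal proteins and complex I subunits.

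Cytosolic ribosomal protein genes gave similar values, with a median of 0.07 and 35 of 45 above 0, and respiratory complex I subunit genes a median of 0.07 with 28 of 33 above 0. Both sets are brighter than the mitochondrial ribosomal protein genes, with median signals of 4475 and 2422 units. With quantile normalization the medians were 0.0095 for cytosolic ribosomal protein genes, 0.05 for complex I and 0.07 for mitochondrial ribosomal protein genes, and with intensity-dependent centring 0.02, 0.05 and 0.06. The counts above 0 were then lower for both comparison sets, at 28 and 30 of 45 cytosolic ribosomal protein genes and 21 and 20 of 33 complex I genes, while 54 and 53 of 74 mitochondrial ribosomal protein genes were above 0. Cytosolic ribosomal protein genes had 2 of 45 past 0.5 and complex I genes 1 of 33, against 5.87% of all measured genes. The cytosolic genes were Rps27 (0.62, probe set SD 0.25) and Rpl37a (0.57, probe set SD 0.83), and 1 was past 0.5 with the brightest probe set alone. The complex I gene was Ndufb1, whose signals were 90.6 units in the oleanolic acid array and 31.0 in the control array. Ndufb1 counted as measured through the oleanolic acid array alone. With both arrays required to reach their median, 0 of 32 complex I genes were past 0.5.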

How the data were processed

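Liver RNA, pooled to 1 sample per diet, was labelled with biotin and hybridized to Affymetrix 3' expression arrays, per the labels' protocols. MAS5, of a version not given, made the deposited linear intensities per probe set, per the submitters' processing notes. After trimming 2% at each end they averaged 300.1 on both arrays, so no scaling was added. Detection calls are not in the table used here. Gene names came from the platform annotation, and 74 of 74 member genes matched RefSeq (GRCm38.p6) by gene identifier. No build is named for the array values.

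Signals were floored, converted to log2 and averaged over measured probe sets with Python 3.11.15 and pandas 2.3.3. The procedure was tested on simulated data, with planted changes much larger than those of the members. That test does not cover changes of the members' size. Large and small subunits were compared by medians and counts only, and array number limits the precision. Alternatives covered the floor, the measured rule, the summary over probe sets, probe set kind and normalization (statsmodels 0.14.6 for the centring). Genes were named by rank within each subunit (6 highest and 6 lowest large, 5 highest and 5 lowest small), signal (3 brightest each) and role lists, with others marked, except where a sequence, a probe set comparison or the range of a list needed one. The members, lists, motif strings and printed stretches were chosen with results of these data known.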

Additional observations from a re-analysis of the deposited data

How the results depend on the processing

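With 1 pooled array per diet, no alternative can show variation between mice. Over 8 alternatives the members' median log2 ratio stayed between 0.04 and 0.07. The count above 0, an alternative set added after seeing the data, lay between 46 and 54 of 74, and at 48 of 70 genes without probe sets ending in _x_at or _s_at. The large minus small difference stayed between -0.06 and -0.01 over 9 alternatives. The count past 0.5 was 0 in 7 alternatives and 1 when no probe set was left out as dim, where the dim probe set of Mrpl57 put that gene at -0.72. Of 317 values of named genes under alternatives, 315 moved by less than the probe set SD, and Mrpl11 moved by more in 2: to -0.03 with dim probe sets kept and to 0.20 with its brightest probe set alone. Measured member probe sets reach the median on both arrays. The floor at the median and the rule for both arrays therefore could not move any of the 40 named genes. The brightest probe set could not move the 53 genes with 1 measured probe set. Moves smaller than the SD include changes of sign, such as Mrpl3 at -0.19 and Mrps5 at -0.10 with the brightest probe set alone. No paired analysis was possible because each diet has 1 array. Ratios of dim probe sets are limited by signal over background, which is unknown without detection calls.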
